A study of Mus musculus with 9 samples.

Results

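The 10 genes described here are *Nlrc5* and 9 genes that make and load MHC class I molecules, out of 55401 genes in the deposited RNA-Seq tables. They are the class I transactivator *Nlrc5*, the heavy chains *H2-K1* and *H2-D1*, the light chain *B2m*, the peptide transporter and loading genes *Tap1*, *Tap2* and *Tapbp*, and the immunoproteasome subunits *Psmb8*, *Psmb9* and *Psmb10*. All 10 were found by name in every table. The set was selected on the normalized counts and fold changes of these same libraries, so differences of the 10 genes between groups are given as a description, without p-values.

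MHC class I molecules carry peptides from inside a cell to its surface, where cytotoxic T cells read them. Proteasomes with the subunits *Psmb8*, *Psmb9* and *Psmb10* cut proteins into peptides, the *Tap1* and *Tap2* transporter moves the peptides into the endoplasmic reticulum, and tapasin, the product of *Tapbp*, helps to load them onto a heavy chain paired with β2-microglobulin. *Nlrc5* is a NOD-like receptor that binds no DNA itself. It is recruited to the SXY module of class I promoters by the RFX, CREB/ATF and NF-Y factors bound there, and its own transcription is raised by interferon. Loss of class I expression is a known way for tumor cells, leukemic cells among them, to escape T cells.

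The libraries were made from the spleens of mice given H9M cells, an acute myeloid leukemia model in which C57BL/6-Ly5.1 lineage-negative bone marrow cells were transduced with a gammaretroviral vector for *Meis1* and *Hoxa9*. In all groups the cells also carried a lentiviral color-coding (FGB-D) vector, were derived from single cells, and grew in lethally irradiated C57Bl6/J recipients given helper bone marrow. CD45.1+, EGFRt-bright, cKit+ and CD11b dim or negative splenocytes were separated into clones by color. Pre-malignant libraries came from 1 animal, mouse #15, killed 4 weeks after transplantation, which gave clone 33BC-D, clone 38BC-D and clone 43BC-D. The de novo expanded group was made of these clones at the leukemic endpoint, with 38BC-D taken from mouse #13, 43BC-D from mouse #14 and 33BC-D from mouse #17. The stably expanded group was 1 clone, 34BC-D, from the same 3 endpoint mice. Disease stage and mouse #15 therefore cannot be told apart in any comparison with the pre-malignant group, and clone and behavior cannot be told apart in the stably expanded group. Column names led only to a group, so libraries are numbered 1 to 3 within each group, and a number names no clone or mouse.

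Each library held 10379739 to 15551196 reads on genes. Levels are given as CPM, the share of these reads on a gene times 1000000. Among the transcripts of the sort and the model, *Kit* stood at 142 to 287 CPM over the libraries, *Ptprc* at 310 to 385, *Hoxa9* at 315 to 687 and *Meis1* at 535 to 1099. Reads of the vector and of the endogenous *Hoxa9* and *Meis1* genes were not told apart. De novo expanded library 3 stood apart from its group. Over 13082 genes, its root mean square difference in log2(CPM + 1) was 0.718 and 0.782 to the other de novo expanded libraries, which differed from each other by 0.421, but 0.465 to 0.523 to the stably expanded libraries. The granule enzyme gene *Mpo* stood at 15796 CPM there and at 1637 and 2658 CPM in the other de novo expanded libraries. The 8 markers of the sort and the model, *Mpo* among them, summed to 18549 CPM in library 3 and to 3331 and 4794 CPM in the other de novo expanded libraries. The sums were 8579 to 8942 CPM in the pre-malignant and 9882 to 11233 CPM in the stably expanded libraries. Library 3 thus lay above both of these groups, and the other de novo expanded libraries lay below them. The label was kept, and the fold changes that moved most with this library are also given without it. Stably expanded over pre-malignant, 2 of the 8 markers were higher and 1 was lower without overlap between the groups. *Itgam*, the gene of the sort marker CD11b, and *Mpo* were higher, with log2 fold changes of 0.61 and 0.31. *Kit* was lower, at -0.30. The sort markers *Itgam* and *Kit* thus moved in opposite directions. The part of this in the differences of *Nlrc5* was not tested.

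The promoters show which of the genes hold the letters of an SXY module close to their start. RefSeq promoters on GRCm38.p6, from 250 bases before to 50 bases after a start site, were examined for 7 of the members. *Nlrc5* and *Tap2* had no entry. The core letters of the X2 box and of the Y box of SXY were sought as TGACG and CCAAT on both strands. CCAAT read on the other strand is ATTGG. In *H2-K1* and *H2-D1*, TGAC was followed by ATTGG after 21 bases on the sense strand, and 4 further class I genes, *H2-Q4*, *H2-Q6*, *H2-Q7* and *H2-M3*, held the same pair after 20 or 21 bases. The pair was sought after the sequences had been seen. It stood in 0.408% of all 32851 promoters of this length. The stretches are shown 5′ to 3′ on the sense strand with TGAC and ATTGG in capitals, because both heavy chain members held the pair and the other 5 members examined did not. Of 10 further class I and class I-like genes with a promoter, 4 held it, and *H2-T22*, *H2-T23* and *H2-Q10* were among those that did not.
*H2-K1*, chr17:34000348-34000408, minus strand: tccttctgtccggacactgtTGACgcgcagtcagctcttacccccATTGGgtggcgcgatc
*H2-D1*, chr17:35262973-35263033, plus strand: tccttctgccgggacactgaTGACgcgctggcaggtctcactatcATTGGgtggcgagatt
*H2-Q4*, chr17:35379493-35379553, plus strand: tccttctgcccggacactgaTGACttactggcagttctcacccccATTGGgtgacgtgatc
*H2-Q6*, chr17:35424727-35424786, plus strand: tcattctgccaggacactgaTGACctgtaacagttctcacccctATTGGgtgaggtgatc
*H2-Q7*, chr17:35439071-35439130, plus strand: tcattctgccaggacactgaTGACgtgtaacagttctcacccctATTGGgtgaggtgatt
*H2-M3*, chr17:37270168-37270228, plus strand: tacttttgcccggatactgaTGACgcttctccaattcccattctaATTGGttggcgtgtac

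The *H2-K1* and *H2-D1* stretches were identical at 49 of 61 bases and those of *H2-Q6* and *H2-Q7* at 58 of 60. In *H2-Q4* and *H2-Q6* the base after TGAC was not G, so the TGACG letters were absent from that place. In all, TGACG stood in 4 of the 7 members examined, against 20.8% of all promoters, and CCAAT in 5 of 7, against 37.4%. A pair of GAAA with any 2 bases between them, the core of the interferon-stimulated response element, was found in 0 of 7 and in 3.44% of all promoters. TTCNNNGAA, the core of the STAT site, was found in *Psmb8* only among the 7 members, and in 8.30% of all promoters. Only exact letters within these promoters were sought, so a site with a differing letter was not counted. A lack of matches therefore does not show that a promoter has no such site. By their RefSeq start sites, *Tap1* and *Psmb9* start 226 bases apart on opposite strands of chromosome 17, and their promoters overlap by 275 bases. The gene spans given below follow the authors' annotation, in which these genes overlap and the *H2-D1* span begins before its RefSeq start. Both promoters held the same TGACG, 86 bases before the RefSeq *Tap1* start and shown here on the plus strand in capitals.
*Tap1* and *Psmb9*, chr17:34187458-34187487, plus strand: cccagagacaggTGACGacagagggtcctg

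**Figure D1:**
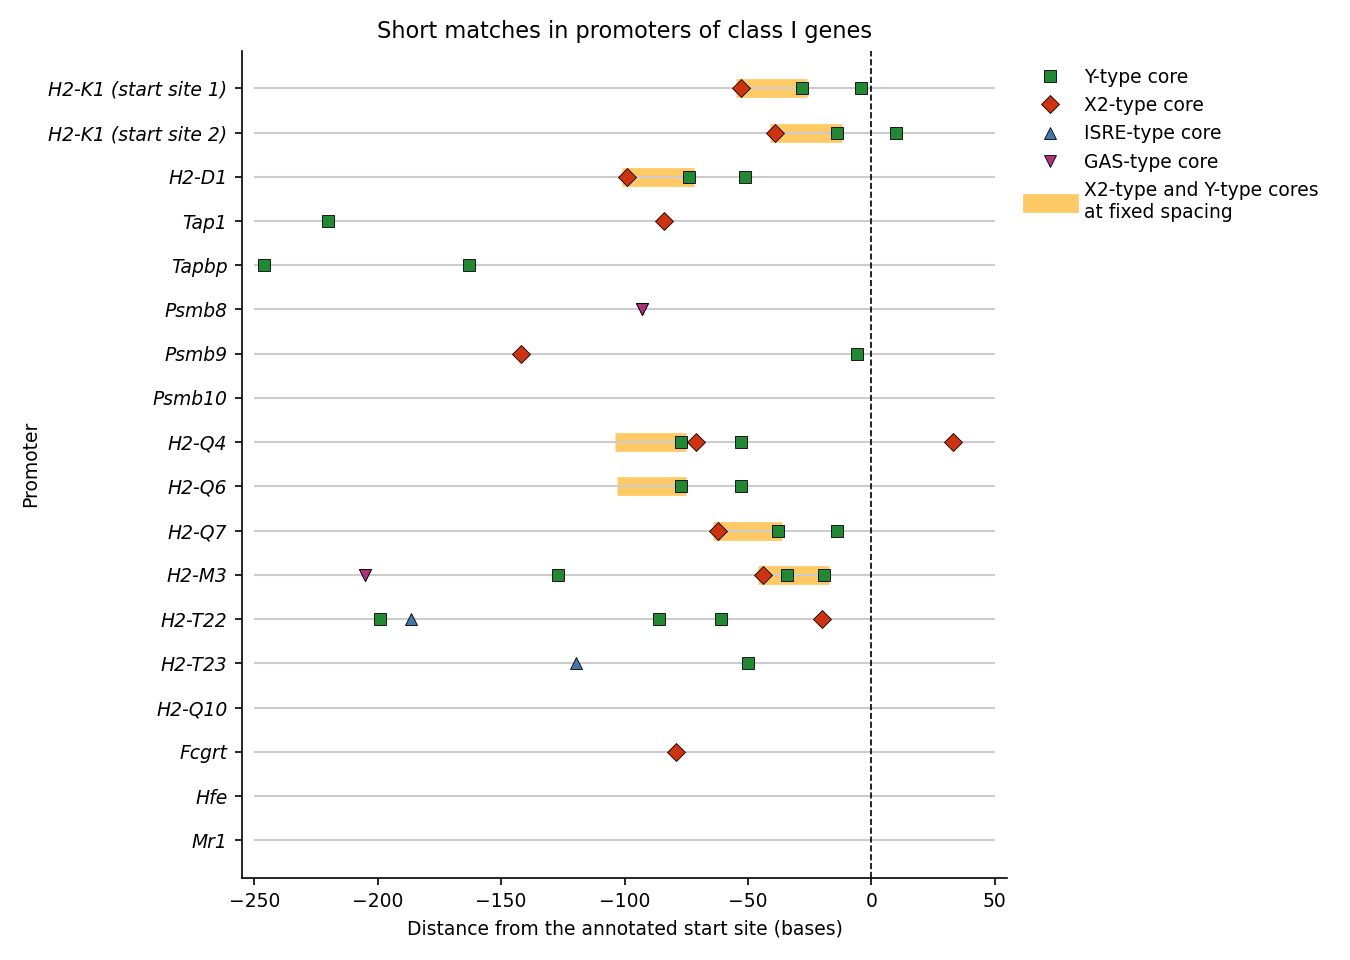
Positions of short letter matches in the RefSeq promoters of 7 members and of 10 further class I heavy chain and class I-like genes, in bases from the annotated start site. Squares mark the Y-type core, diamonds the X2-type core, triangles the ISRE-type and GAS-type cores, and orange bars the spaced pair, for which 4 letters of the X2-type core sufficed. The bars lie before the start of *H2-K1* and *H2-D1* and of 4 of the 10 further genes.

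*Nlrc5* (ENSMUSG00000074151.13), on the plus strand of chromosome 8 from 94434356 to 94527272, was the member that differed most between the groups. Pre-malignant libraries stood at 131, 121 and 126 CPM, de novo expanded libraries at 111, 96.9 and 34.2 CPM and stably expanded libraries at 51.6, 45.2 and 51.4 CPM. All 3 stably expanded libraries lay below all 3 pre-malignant libraries, and de novo expanded library 3 was the lowest of the 9, while de novo expanded libraries 1 and 2 lay between the other groups. The group means were 126 ± 4.63, 80.6 ± 40.7 and 49.4 ± 3.68 CPM (SD, n = 3). On the authors' normalized counts, *Nlrc5* was at 1706 ± 81.3 in the pre-malignant and 672 ± 62.3 in the stably expanded libraries, 2.54-fold lower, with a log2 fold change of -1.35 (standard error 0.11). De novo expanded over pre-malignant, the log2 fold change was -0.80 (standard error 0.39), and without de novo expanded library 3 it was -0.27. Stably over de novo expanded, it was -0.53 (standard error 0.40), and -1.05 without that library. In these bulk samples, fewer cells that express a gene and less RNA per cell cannot be told apart.

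The classical heavy chains showed smaller differences. *H2-K1* (ENSMUSG00000061232.16, chromosome 17, 33996017 to 34000347, minus strand) stood at 758, 715 and 839 CPM in the pre-malignant, 685, 628 and 502 CPM in the de novo expanded and 674, 568 and 589 CPM in the stably expanded libraries. *H2-D1* (ENSMUSG00000073411.12, chromosome 17, 35262730 to 35267499, plus strand) stood at 900, 884 and 1115, at 893, 831 and 633, and at 827, 788 and 678 CPM in the same order. The leukemic *H2-K1* libraries all lay below the pre-malignant libraries, and so did the stably expanded *H2-D1* libraries, while de novo expanded library 1 overlapped the pre-malignant group for *H2-D1*. For *H2-K1* the log2 fold change was -0.34 (standard error 0.13) de novo expanded over pre-malignant, -0.22 without de novo expanded library 3, and -0.33 (standard error 0.10) stably expanded over pre-malignant. The matching values for *H2-D1* were -0.29 (standard error 0.15), -0.15 without that library, and -0.33 (standard error 0.11). Quantile normalization moved the last value to -0.50. The leukemic groups differed from each other by 0.03 (standard error 0.14) for *H2-K1* and -0.02 (standard error 0.15) for *H2-D1* on the log2 scale, and by -0.09 and -0.16 without de novo expanded library 3. Class I heavy chain genes are close paralogs, and short reads could have been shared or lost between them.

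*B2m* (ENSMUSG00000060802.8, chromosome 2, 122147686 to 122153083, plus strand), the light chain of every class I molecule, stood at 595, 513 and 672 CPM in the pre-malignant, 541, 516 and 495 CPM in the de novo expanded and 634, 555 and 506 CPM in the stably expanded libraries. The 3 groups overlapped. Its log2 fold changes were -0.17 and -0.06 over the pre-malignant group and 0.13 stably over de novo expanded, with standard errors of 0.12, 0.12 and 0.11.

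Among the transporter and loading genes, only *Tap1* had a pair of groups that did not overlap, stably expanded and pre-malignant. Of all genes tested, 30.7% did not overlap in that comparison. *Tap1* (ENSMUSG00000037321.17, chromosome 17, 34187553 to 34197225, plus strand) stood at 185, 183 and 213 CPM in the pre-malignant, 193, 209 and 132 CPM in the de novo expanded and 163, 162 and 155 CPM in the stably expanded libraries. The stably expanded libraries lay below the pre-malignant libraries, with a log2 fold change of -0.27 (standard error 0.09), and de novo expanded library 3 was again the lowest of all. De novo expanded over pre-malignant, the *Tap1* value was -0.13 (standard error 0.17) with this library and 0.06 without it, and stably over de novo expanded it was -0.12 with and -0.31 without it. *Tap2* (ENSMUSG00000024339.12, chromosome 17, 34203527 to 34216321, plus strand), the other half-transporter, ranged from 172 to 209 CPM over the 9 libraries, with overlapping groups and log2 fold changes between -0.08 and 0.11. *Tapbp* (ENSMUSG00000024308.15, chromosome 17, 33915899 to 33929292, plus strand) ranged from 152 to 231 CPM, with log2 fold changes of -0.18 de novo over pre-malignant and 0.19 between the leukemic groups, which were -0.33 and 0.34 without de novo expanded library 3. De novo expanded library 3, at 210 CPM, was not low for *Tapbp*, and the other de novo expanded libraries were the lowest of the 9. In the authors' annotation, *Tapbp* overlaps *Zbtb22* by 3422 bases on the same strand, and *Tap1* and *Psmb9* overlap by 212 bases on opposite strands. Reads from these stretches may therefore be assigned to either gene or to neither.

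The immunoproteasome subunits had no pair of groups without overlap. *Psmb8* (ENSMUSG00000024338.15, chromosome 17, 34197721 to 34201454, plus strand) stood at 267, 316 and 344 CPM in the pre-malignant, 392, 359 and 246 CPM in the de novo expanded and 277, 301 and 295 CPM in the stably expanded libraries. De novo expanded libraries 1 and 2 were the highest of the 9 for *Psmb8* and library 3 was the lowest. The log2 fold change was 0.10 (standard error 0.18) de novo expanded over pre-malignant, and 0.29 without library 3. Stably over de novo expanded it was -0.16, and -0.35 without that library. *Psmb9* (ENSMUSG00000096727.3, chromosome 17, 34181987 to 34187764, minus strand) ranged from 54.4 to 68.6 CPM, and *Psmb10* (ENSMUSG00000031897.9, chromosome 8, 105935735 to 105938444, minus strand) from 43.8 to 54.9 CPM. Over the 3 comparisons, their values were small, with log2 fold changes of 0.14, 0.07 and -0.06 for *Psmb9* and 0.02, -0.09 and -0.09 for *Psmb10*.

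**Figure D2:**
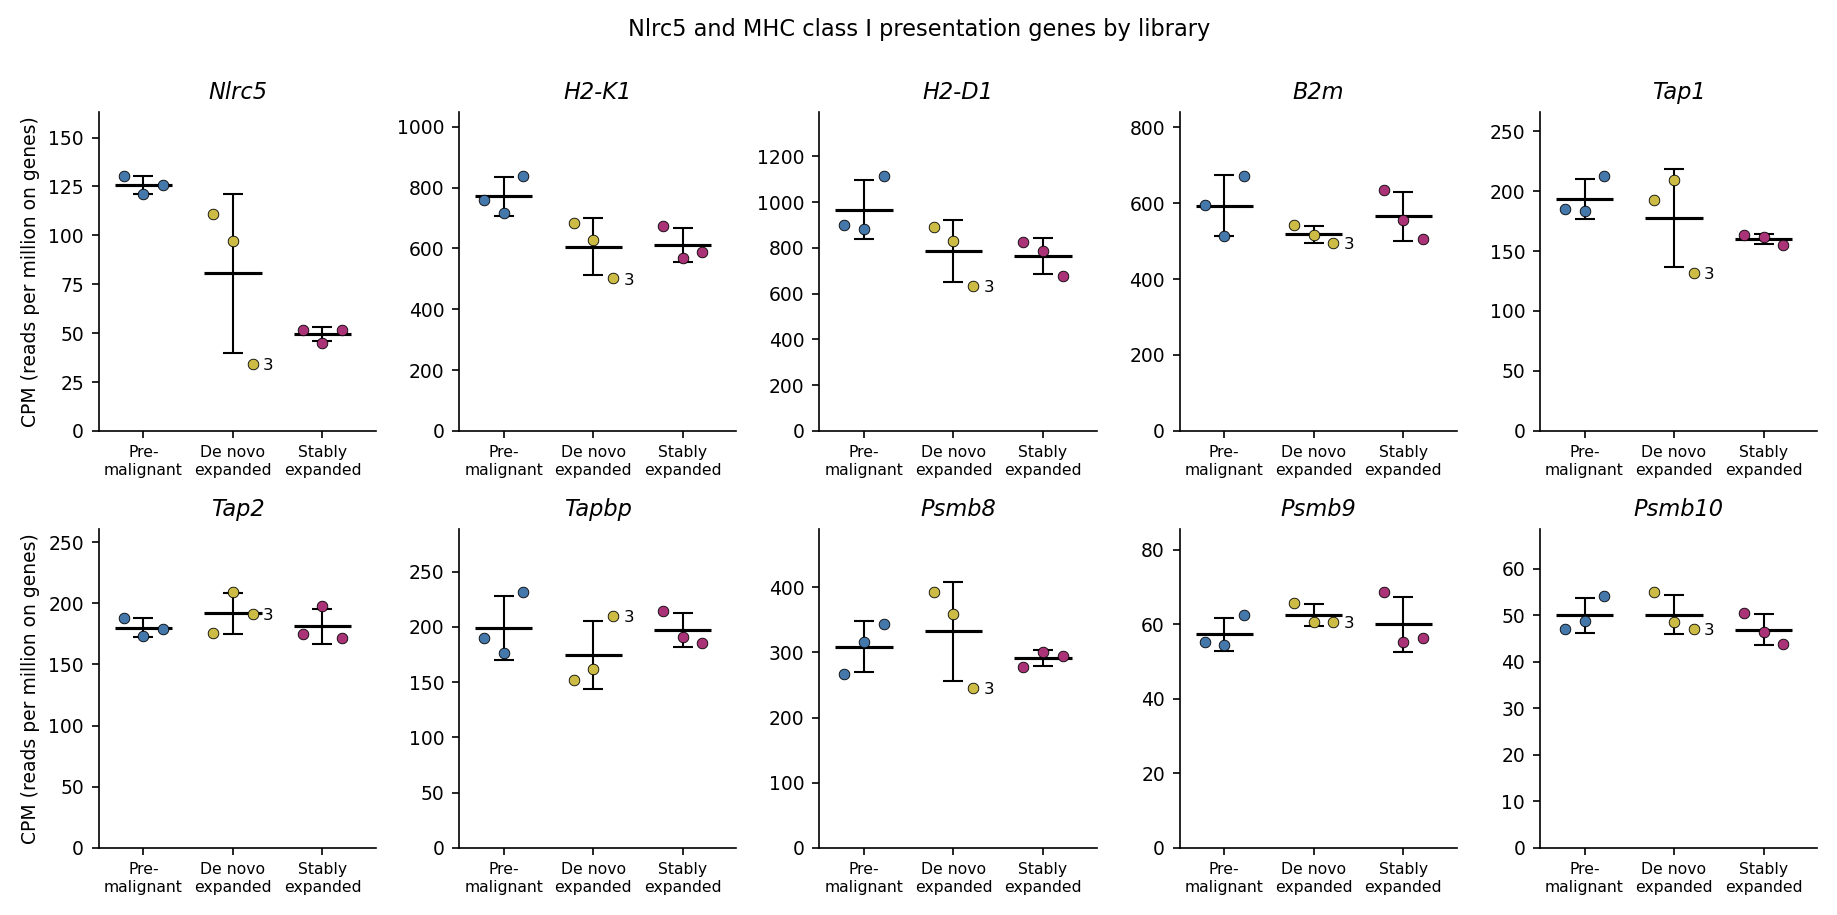
CPM of the 10 genes in the 9 libraries, with points for libraries, a horizontal bar for the group mean and whiskers for the SD (n = 3); the numeral marks de novo expanded library 3. The *Nlrc5* points lie at 121 to 131 CPM in the pre-malignant and at 45.2 to 51.6 CPM in the stably expanded group, whereas the points of *B2m*, *Tap2*, *Tapbp*, *Psmb9* and *Psmb10* overlap between all groups.

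Divided by exon length, the levels spanned a wide range. In the median of the 9 libraries, *B2m* was highest with 629.6 CPM per kilobase, followed by *H2-D1* with 322 and *H2-K1* with 229.6. *H2-D1* ranged from 245 to 432 and *H2-K1* from 171 to 286 CPM per kilobase, so these neighbors overlapped across libraries, while the lowest *B2m* library, at 575, exceeded the highest *H2-D1* library. *Psmb8* followed at 72.8 to 116, *Tapbp* at 41.9 to 63.7, *Tap2* at 45.4 to 55.3, *Tap1* at 24.02 to 38.9, *Psmb10* at 25.7 to 32.2 and *Psmb9* at 14.9 to 18.7 CPM per kilobase. *Tapbp* and *Tap2* overlapped, and so did *Tap1* and *Psmb10*. *Nlrc5* was the lowest member in the median. It stood at 14.3 to 15.4 CPM per kilobase in the pre-malignant group, overlapping with *Psmb9*, and at 5.32 to 6.08 in the stably expanded group, below every *Psmb9* library.

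Set against the other 9 genes of the same library, a measure that the scaling of a library leaves nearly unchanged, *Nlrc5* showed the same order of group means. De novo expanded library 1 lay within the pre-malignant range on this measure. Its log2(CPM + 1) minus the median of the other 9 genes was -0.54, -0.59 and -0.87 in the pre-malignant libraries. The difference was -0.79 and -1.10 in de novo expanded libraries 1 and 2 and -2.58 in library 3, and it was -2.03, -2.105 and -1.83 in the stably expanded libraries. For each read of *Nlrc5* there were 12.7 to 15.5 reads of *H2-K1* and *H2-D1* together in pre-malignant clones, 14.3, 15.1 and 33.2 in de novo expanded clones and 24.6 to 30.04 in stably expanded clones. De novo expanded libraries 1 and 2 thus lay within the pre-malignant range of this ratio, and only library 3 lay outside it. *Nlrc5* itself enters the ratio, which is therefore no independent measure.

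A gene counted as called where limma gave a Benjamini-Hochberg adjusted p-value under 0.05 over all genes tested and the difference was 2-fold or more. Stably expanded over pre-malignant, 1 of the 10 members was called, *Nlrc5*, against 2.75% of all 13968 genes tested, and 4 of 10 had groups that did not overlap, all lower, against 30.7% of all genes. De novo expanded over pre-malignant, 0 of 10 members were called, against 0.0% of 14195 genes, and 2 of 10, *Nlrc5* and *H2-K1*, had groups that did not overlap, against 19.1%. At an unadjusted p-value under 0.05, limma passed 1597 genes in that comparison; edgeR called 0 genes and DESeq2 called 42. Without de novo expanded library 3, 0 of 10 members were still called there, against 1.5% of all genes. Stably over de novo expanded, 0 of 10 members were called, against 0.00727% of 13758 genes, and 0 of 10 had groups without overlap, against 9.61%. Without de novo expanded library 3 the call for *Nlrc5* was made in this comparison also, against 3.69% of all genes. The members used these contrasts in their choice, so nothing is read from the counts. The median log2 fold change of the members was -0.15, -0.08 and -0.07 in the order de novo over pre-malignant, stably over pre-malignant and then stably over de novo, against 0.01, 0.00 and -0.00 over all genes tested. Without de novo expanded library 3 the first and last medians were -0.05 and -0.11, without pre-malignant library 3 the first was -0.06 and the second -0.01, and the second was -0.14 without pre-malignant library 1 or 2 and -0.15 without stably expanded library 1. The last was -0.02 without de novo expanded library 1, -0.00 without library 2 of that group, -0.11 without stably expanded library 1 and -0.03 without stably expanded library 3. The *Nlrc5* call between stably expanded and pre-malignant clones was made in 13 of 14 alternatives and was missed in 1 fit of all 9 libraries. All alternatives reuse the libraries on which *Nlrc5* was chosen, so this describes the processing and gives no support to the call.

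**Figure D3:**
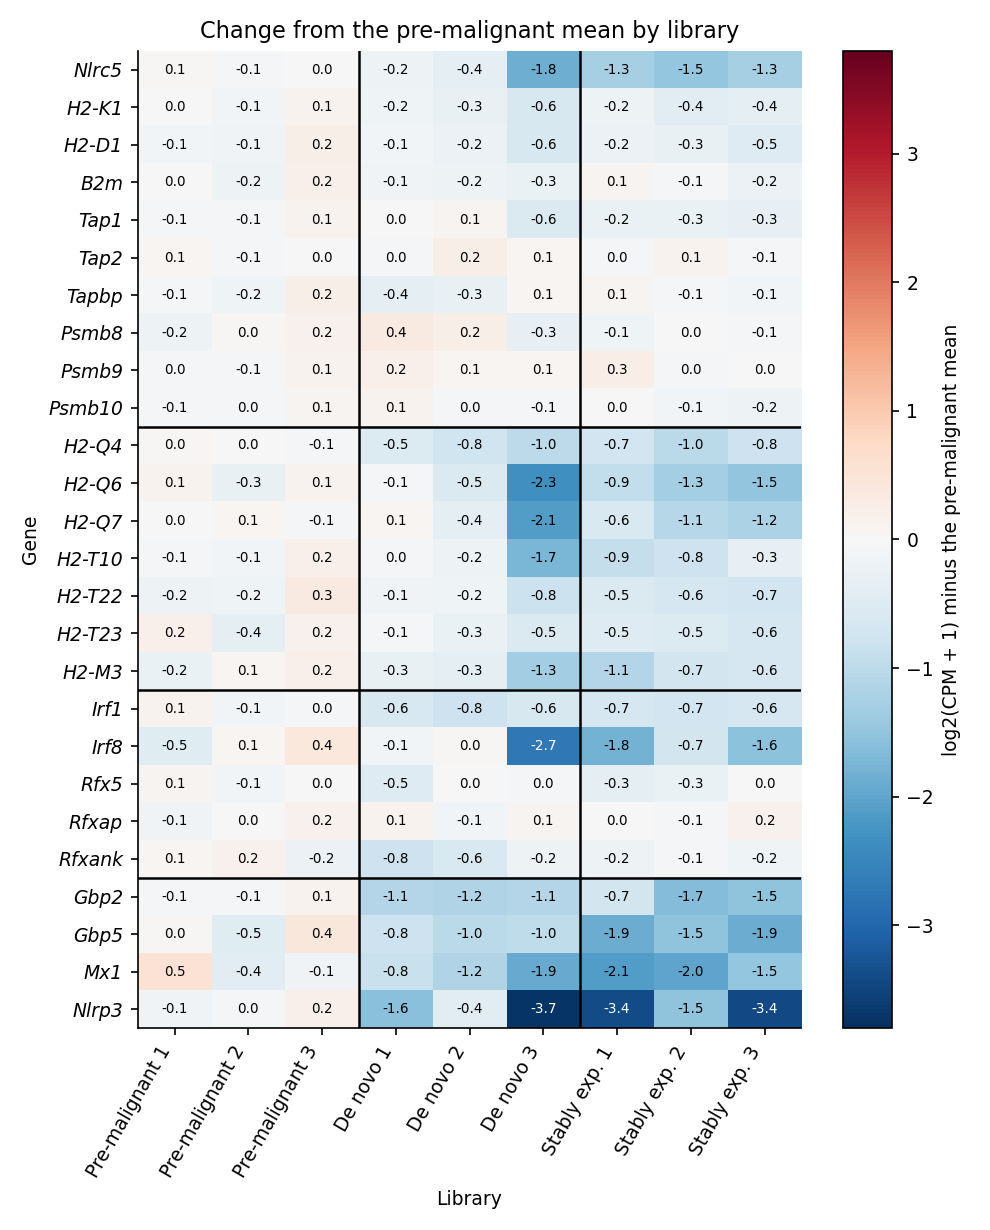
Log2(CPM + 1) of each gene minus its mean over the pre-malignant libraries, by library, with the value printed in each cell. From top to bottom, blocks hold the 10 members, 7 further heavy chains, 5 regulators, and 4 called interferon-induced or NOD-like receptor genes. The top row and the *H2-Q6* and *H2-Q7* rows are darkest in de novo expanded library 3, and the *Tap2*, *Psmb9*, *Psmb10* and *Rfxap* rows stay pale.

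The genes whose pattern was most like *Nlrc5* were sought by the root mean square distance between log2(CPM + 1) values, each centred on its own mean over the 9 libraries, among 13081 genes with a mean of at least 1 CPM. The nearest was *Ighm*, the immunoglobulin μ heavy chain, at a distance of 0.145. It stood at 209, 195 and 240 CPM in the pre-malignant, 192, 150 and 61.9 CPM in the de novo expanded and 68.0, 79.1 and 83.0 CPM in the stably expanded libraries. *Pim1*, a serine/threonine kinase gene, followed at 0.197, the predicted gene *Gm47585* at 0.200, *Sntb1*, a syntrophin gene, at 0.213 and the interferon-inducible *Ifi203* at 0.235. The 5 genes were picked for their closeness to *Nlrc5*, so their likeness to it is no separate result. In each of the 5, de novo expanded library 3 was the lowest library and the pre-malignant libraries exceeded the stably expanded libraries. The heavy chains *H2-Q6*, *H2-Q7*, *H2-M3* and *H2-T10* ranked 8, 15, 47 and 52 in this list, ahead of all other members and related genes examined.

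The other genes of the pathway were examined in 6 lists with 76 genes, of which 73, 72 and 70 passed the filter on low values in the 3 comparisons, taken in the same order. By limma, 6 of the 72 genes were called between stably expanded and pre-malignant clones, all lower in the stably expanded clones, against 2.75% of all genes, of which 216 were called lower and 168 higher. In each of the other comparisons 0 were called. At an unadjusted p-value under 0.05 limma passed 18, 33 and 3 of the related genes. Of all genes tested it passed 1597 of 14195, 3553 of 13968 and 664 of 13758. In both comparisons without a call edgeR called 0 related genes, and DESeq2 called 1, *Gbp2*, de novo over pre-malignant. The median log2 fold change of the related genes was -0.19, -0.13 and 0.00 in this order. Without overlap between groups, 14, 26 and 4 of the related genes lay lower and 6, 11 and 1 higher. Over all genes tested the matching counts were 1206 lower and 1501 higher of 14195, 2040 lower and 2246 higher of 13968, and 681 lower and 641 higher of 13758. The 6 lists were written with earlier results of these data known. Their counts, medians and p-values are therefore a description, and nothing is read from a difference to all genes.

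Among the 12 tested heavy chains and class I-like molecules, *H2-Q6* was called. This Qa-2 family gene fell from 86.5, 65.4 and 87.3 CPM in the pre-malignant libraries to 41.2, 31.9 and 27.5 CPM in the stably expanded libraries. Its log2 fold change was -1.25 with a standard error of 0.17 (limma, adjusted p = 0.00434). In the de novo expanded libraries it stood at 74.4, 54.1 and 14.8 CPM, with library 3 again the lowest of all. *H2-Q4*, *H2-Q7*, *H2-M3*, which presents formylated peptides, and *H2-T22* passed the adjusted p-value but not the fold limit, with log2 fold changes of -0.86, -0.99, -0.85 and -0.66, and they are named after their values were seen. The spaced pair of promoter letters was held by *H2-Q4*, *H2-Q6*, *H2-Q7* and *H2-M3*, but not by *H2-T22*. It was also held by *H2-K1* and *H2-D1*, whose log2 fold changes were -0.33 in the same comparison. Any link between the pair and the fold changes was not tested. The 12 genes had a median of -0.70 de novo over pre-malignant, -0.31 without de novo expanded library 3, -0.69 stably over pre-malignant and -0.14 between the leukemic groups. With de novo expanded library 3 left out, the last median was -0.42, and with library 1 or library 2 of that group left out it was 0.02. It was -0.08 and -0.03 without stably expanded library 1 and 2. At the ends of the list, *Fcgrt*, the neonatal Fc receptor chain, stood at 3.70 to 5.54 CPM in the pre-malignant and 0.783, 5.62 and 1.349 CPM in the stably expanded libraries. Its log2 fold change of -1.36 did not pass. *Mr1*, which presents microbial metabolites, had a value of 1.26 stably over de novo expanded at 0.334 to 5.49 CPM, and did not pass either.

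Of 9 tested genes of peptide trimming, loading and folding, 0 were called by limma in each comparison, and the medians were 0.09, 0.16 and 0.07 on the log2 scale. The chaperone gene *Canx* stood at 856 to 943 CPM in the pre-malignant, 985 to 1135 CPM in the de novo expanded and 1013 to 1158 CPM in the stably expanded libraries, and its log2 fold changes of 0.28 and 0.27 over the pre-malignant group did not pass. The aminopeptidase gene *Npepps* stood at 67.3 and 72.1 CPM in de novo expanded libraries 1 and 2 and at 135 CPM in library 3, against 116 to 157 CPM in the stably expanded libraries. Likewise, 0 of the 8 constitutive proteasome genes were called, with medians of 0.20, 0.24 and 0.03. Without pre-malignant library 1 the first 2 of these medians were 0.06 and 0.09. *Psmb5*, the constitutive counterpart of *Psmb8*, stood at 9.79, 16.6 and 17.6 CPM in the pre-malignant and 24.8, 25.6 and 21.2 CPM in the stably expanded libraries, without overlap and without a call (log2 fold change 0.75). The activator gene *Psme3* had a log2 fold change of 0.33 de novo over pre-malignant and was not called.

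Among 23 SXY factors and upstream regulators tested, *Irf8*, an interferon regulatory factor gene of myeloid and lymphoid cells, was the only gene called. It fell from 308, 441 and 556 CPM in the pre-malignant libraries to 122, 259 and 144 CPM in the stably expanded libraries. Its log2 fold change was -1.35 with a standard error of 0.25 (limma, adjusted p = 0.0126), and the call was missed without pre-malignant library 2. In the de novo expanded libraries *Irf8* stood at 391, 432 and 63.2 CPM. Without library 3 it was also called between the leukemic groups, at a log2 fold change of -1.30 (adjusted p = 0.0175 by limma), where the value with this library was -0.41. *Irf1*, *Ifnar1* and *Ifnar2* fell by less than 2-fold and passed the adjusted p-value alone, with log2 fold changes of -0.68, -0.66 and -0.56, whereas *Ifngr1*, the ligand-binding chain of the interferon gamma receptor, rose by 0.70. Apart from *Ifnar1* these are named after their values were seen. *Irf1* was also lower in all 3 de novo expanded libraries, at 50.4 to 56.5 CPM against 80.8 to 96.3 CPM, with a log2 fold change of -0.66 that did not pass. *Rfx5*, *Rfxap* and *Rfxank*, the RFX subunits, had log2 fold changes of -0.19, 0.04 and -0.15 stably over pre-malignant. For the NF-Y subunits *Nfya*, *Nfyb* and *Nfyc* the values were -0.03, 0.43 and -0.04, none past the test. The list's medians were -0.04, -0.12 and -0.01, and the first ranged from -0.14 without de novo expanded library 2 to 0.03 without library 3.

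Interferon-induced genes had medians of -0.88 and -0.66 over the pre-malignant group, and of -0.21 between the leukemic groups. The first was -0.52 without de novo expanded library 2. The last was -0.13 without de novo expanded library 3, -0.08 without de novo expanded library 2 or stably expanded library 1 or 3, and 0.03 without stably expanded library 2. Of 13 tested genes, 3 were called between stably expanded and pre-malignant clones. *Gbp5*, a guanylate-binding protein gene, fell from 18.2, 12.5 and 23.9 CPM to 4.05, 5.41 and 4.05 CPM, a log2 fold change of -1.96 (adjusted p = 0.00455 by limma), and was called in all 14 alternatives. *Mx1*, an antiviral dynamin-like GTPase gene, fell from 17.9, 8.76 and 10.8 CPM to 1.96, 2.26 and 3.66 CPM, with a log2 fold change of -2.20 (adjusted p = 0.00741 by limma).
*Gbp2* fell from 11.5, 11.5 and 13.4 CPM to 7.05, 3.15 and 3.56 CPM, a log2 fold change of -1.48 (adjusted p = 0.0206 by limma), and its call was missed without each of the pre-malignant libraries in turn. At 5.09, 4.89 and 5.03 CPM, *Gbp2* was as low in the de novo expanded libraries. There the log2 fold change over the pre-malignant group was -1.25 with an adjusted p-value of 0.279 by limma, and -1.26 with an adjusted p-value of 0.0172 without de novo expanded library 3. *Iigp1*, an interferon-inducible GTPase gene, had the lowest value of the list de novo over pre-malignant, -2.27, at no more than 2.35 CPM in any library, and did not pass.

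Of the other NOD-like receptors, *Nlrp3*, the sensor of an inflammasome, was the only 1 of 7 tested genes called. It fell from 44.7, 48.1 and 56.2 CPM in the pre-malignant libraries to 3.78, 16.6 and 3.66 CPM in the stably expanded libraries. Its log2 fold change was -2.99 with a standard error of 0.45 (limma, adjusted p = 0.00607). The de novo expanded libraries stood at 15.9, 37.2 and 2.81 CPM. *Ciita*, the class II counterpart of *Nlrc5*, was at 0.129 to 4.55 CPM in all libraries, and its log2 fold change of -2.05 de novo over pre-malignant did not pass and rested on low counts. The medians of the list were -0.78, -0.53 and 0.18. The second was -0.10 without pre-malignant library 1, and the last ranged from -0.03 without de novo expanded library 1 to 0.35 without de novo expanded library 3. The calls for *H2-Q6*, *Irf8*, *Mx1*, *Gbp2* and *Nlrp3* between stably expanded and pre-malignant clones were missed in 1 fit of all 9 libraries, in which *Gbp5* alone of the related genes was called.

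**Figure D4:**
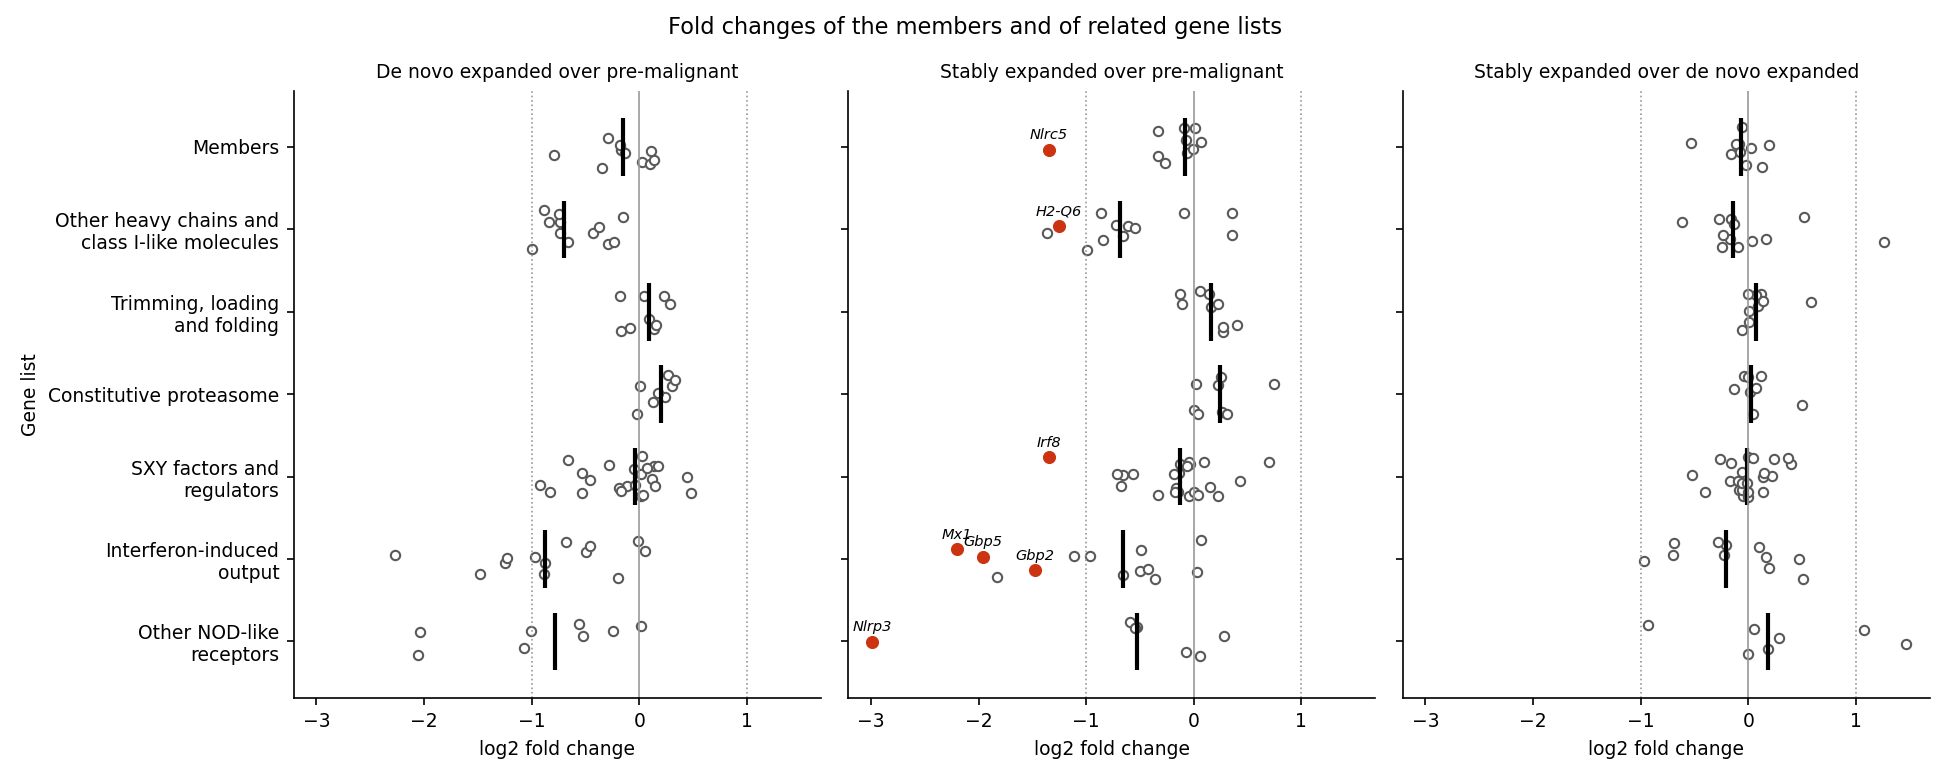
Log2 fold changes of the members and of the 6 related gene lists in the 3 comparisons, 1 point per gene tested. Filled red points with names were called by limma as defined above, black bars are list medians, and dotted lines mark 2-fold. The middle panel holds 7 called genes, all to the left of zero, and the outer panels hold none.

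**Figure D5:**
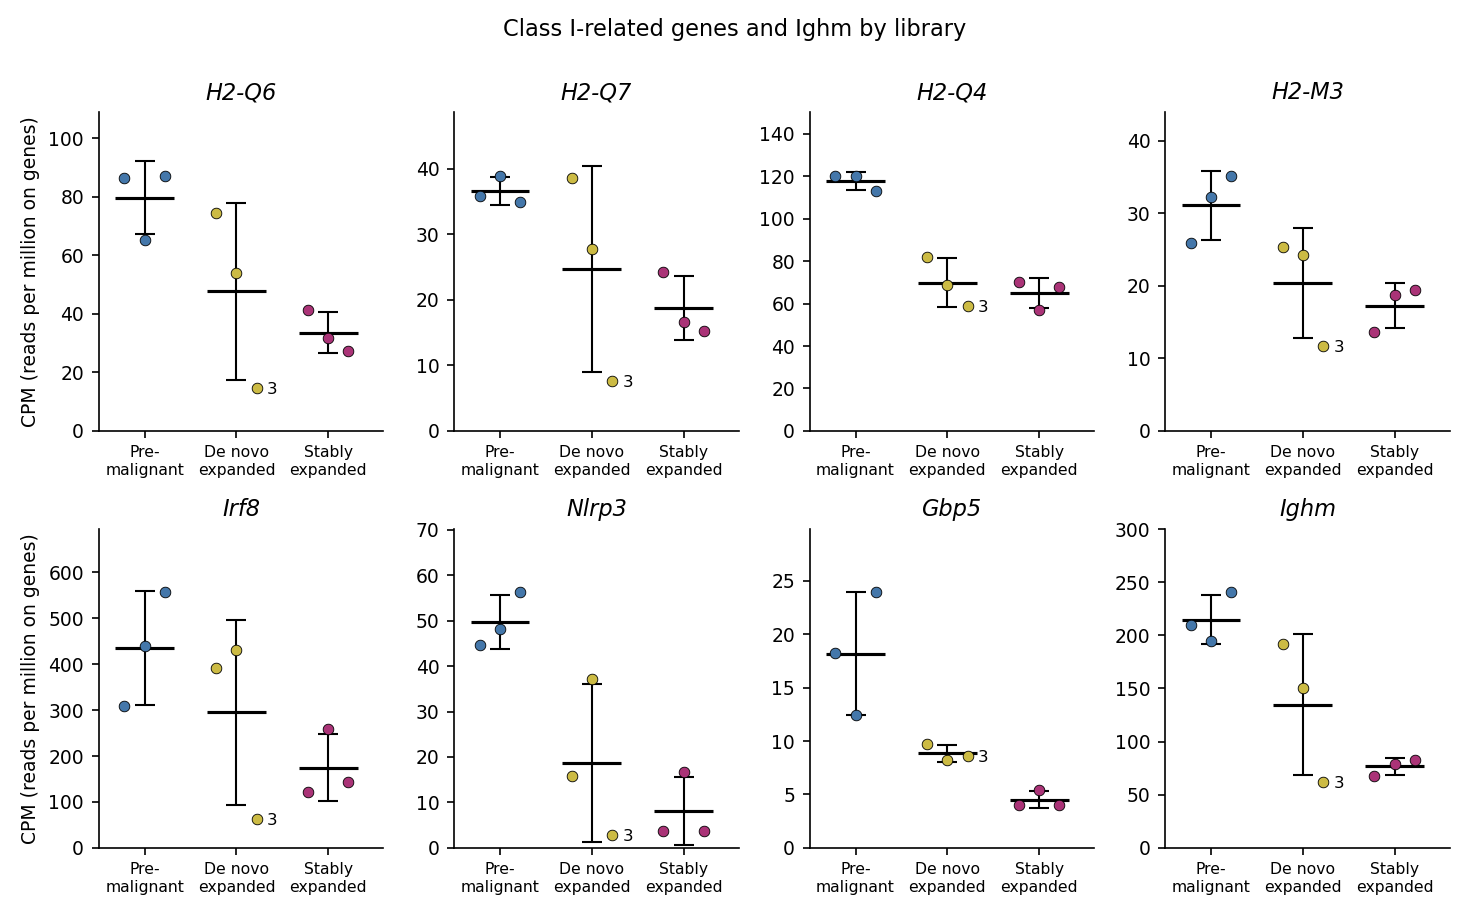
CPM of 4 heavy chain genes, *Irf8*, *Nlrp3*, *Gbp5* and *Ighm* in the 9 libraries, with group means and SD (n = 3); the numeral marks de novo expanded library 3. That library is the lowest of the 9 for *H2-Q6*, *H2-Q7*, *H2-M3*, *Irf8*, *Nlrp3* and *Ighm*, but lies with the other de novo expanded libraries for *Gbp5*.

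Some markers of other cells differed between the same groups as *Nlrc5*. The 8 B cell markers, including *Ighm*, summed to 216 to 259 CPM in the pre-malignant, 76.5 to 205 CPM in the de novo expanded and 86.1 to 103 CPM in the stably expanded libraries. Without *Ighm* the sums were 18.6 to 24.1, 7.72 to 14.6 and 12.1 to 20.04 CPM. Stably expanded over pre-malignant, limma called 4 of the 8 B cell markers lower, against 2.75% of all genes called, and 0 of the 8 were called de novo over pre-malignant. *Cd79b*, a chain of the B cell receptor, had log2 fold changes of 0.99 stably over pre-malignant, where its groups overlapped, and 1.07 stably over de novo expanded, where its groups did not overlap, and was not called. The 8 macrophage markers summed to 275 to 359, 164 to 273 and 187 to 242 CPM, with 1 of 4 tested genes, *Csf1r*, called lower in the stably expanded clones and with *C1qa*, *C1qc* and *Marco* at 3 reads or fewer in each library of that group. Erythroid markers summed to 20.9 to 50.4, 2.81 to 17.4 and 4.53 to 29.1 CPM, with 0 of 5 called, and dendritic cell markers to 3.78 to 5.75, 2.48 to 7.43 and 0.783 to 3.18 CPM, with *Xcr1*, *Siglech*, *Cd209a* and *Clec9a* at 3 reads or fewer in each leukemic library. T cell and NK cell markers summed to 8.11 to 15.4, 3.505 to 74.3 and 17.0 to 32.7 CPM, led by *Nkg7*, the only 1 called and higher in the stably expanded clones. Platelet markers stayed between 1.34 and 3.11 CPM and stroma and endothelium markers between 9.08 and 38.7 CPM, with 0 called. The marker lists were also chosen with earlier results of these data known, so their counts are a description. The part of these cells in the differences of *Nlrc5*, the heavy chains and the interferon-induced genes was not tested.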

How the data were processed

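RNA-Seq of 9 libraries, 3 per group, was analysed. Per the paper's methods and the labels, RNA of sorted cells was made into libraries with a stranded total RNA kit, and the authors processed reads with Trim Galore 0.6.4, STAR 2.6.1d and featureCounts 1.6.4 on GRCm38.p6 with GENCODE annotation. The authors deposited 3 tables, 1 per pair of groups, with a signal per library, a normalized count, made by dividing read counts by the DESeq2 size factor of each library in that table. Columns with the authors' own fold changes and p-values were not used. Whole reads were recovered for at least 99.99% of nonzero values, to within 0.05 reads, and CPM computed from them. A count of 0 allows up to 3 reads, which covers counting error only.

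The test was limma 3.58.1 (R 4.3.3; eBayes with trend, two-sided) on log2(normalized count + 1) within 1 table, after genes whose normalized counts averaged under 10 were dropped, with Benjamini-Hochberg adjustment over all genes tested. Fold changes are differences of these log2 means and understate those of low genes. Nothing says that libraries of a group are independent beyond the mice and clones named, and p-values measure the spread between these libraries. An exact permutation test of 3 against 3 cannot go below 0.1. The fit was tested on simulated data in which 200 genes were changed 4-fold. De novo over pre-malignant, 132 of 188 changed genes tested were recovered, with 8 false calls. Stably over pre-malignant 159 of 189 were recovered, with 3 false calls, and stably over de novo 121 of 196, with 6. Reads of each gene were drawn independently, so no simulated library stood apart over many genes as de novo expanded library 3 did. Changes near the 2-fold limit were not simulated. The shares recovered therefore do not say how many changed genes the real comparisons could find. Alternatives were edgeR 4.0.16 with TMM, DESeq2 1.42.0, pseudocounts, filters, quantile normalization, 1 fit of all 9 libraries and leaving out each library. Other steps used Python 3.11.15 (pandas 2.3.3, numpy 2.4.6) and figures used matplotlib 3.10.9. Members, gene lists and marker lists were chosen with earlier results of these data known. Named genes are the members, related genes called in a comparison or with the largest change of their list, and the 5 genes nearest to *Nlrc5*. Some items are not reported here.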

Additional observations from a re-analysis of the deposited data

How the results depend on the processing

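Leaving aside single libraries, 239 member values moved by less than the spread between replicates under the alternatives and 1 moved by more, *H2-D1* stably expanded over pre-malignant, which was -0.50 under quantile normalization. Leaving out 1 library at a time, 178 stayed within that spread and 2 did not, both *Nlrc5* without de novo expanded library 3. No called value changed sign. The members' median log2 fold change ranged from -0.22 to -0.05, from -0.15 to -0.01 and from -0.11 to -0.00 with 1 library left out, in the order of the comparisons used above. In the same order, *Nlrc5* ranged from -1.11 to -0.27, from -1.39 to -1.27 and from -1.05 to -0.22, the members called from 0 to 0, from 1 to 1 and from 0 to 1, and the related genes called from 0 to 1, from 4 to 7 and from 0 to 1. Of all genes, 0, 384 and 1 were called by limma, 0, 377 and 1 by edgeR, 42, 393 and 29 by DESeq2 and 5, 525 and 2 by limma with low genes left in. The first and last limma counts were 214 and 508 without de novo expanded library 3. Stably over pre-malignant, the count was 219 without pre-malignant library 3 and 206 without pre-malignant library 2. DESeq2 called 1 related gene de novo over pre-malignant, *Gbp2*. The 1 fit of all 9 libraries called 1 related gene and 0 members stably over pre-malignant, with 5, 6 and 2 calls among all genes, and the cause was not tested. No paired analysis was run, because the column names lead to a group but not to a clone or mouse, so the replicate block was not run. The library numbers run through the groups in the same order as the samples. No label says that the orders correspond, and a pairing inferred from them was not tested. With 3 libraries per group small differences of *Psmb9*, *Psmb10* and the other low members could not be told from the spread.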
